A study of Mus musculus with 15 samples.

Results

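The genes examined here are 9 genes known for atrial or conduction myocytes, read in nuclei of ventricular muscle: Myl4, Myl7, Sln, Bmp10, Dkk3, Nr2f1, Nr2f2, Gja5 and Tbx3. They were taken by symbol from a count table of 55536 genes, all 9 were found there, and all 9 passed the filter on low counts that left 17455 tested genes. Since such genes are low in working ventricular muscle, their levels bear on what the dissected and sorted material held.

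The study sequenced RNA from sorted mouse nuclei that carry Pcm1, a protein that marks the nuclei of cardiomyocytes, after removal of ribosomal RNA. The tissue was ventricular muscle from 2 mouse strains labelled Pgr_KO and Pgr_WT after Pgr, which encodes the receptor for progesterone. The 15 libraries fall into 4 groups: 4 labelled KO female, 4 KO male, 3 WT female and 4 WT male. The labels give no allele, age or treatment, the tissue label carries an unexplained "3-6", and no source used here says whether replicates are separate animals, so p-values measure the spread between these libraries, which may be technical. Libraries are named below by label, sex and replicate number, such as KO female 2.

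Sequencing depth ran from 24.4 to 139.4 M counts (median 49.9 M). Levels are normalised counts (CPM) on scaled library sizes, and 3 reads, the floor used here, equal 0.0219 to 0.117 CPM. Pgr reads ran against the genotype labels: Pgr stood at 6.10 to 12.5 CPM in the libraries labelled KO and at 0 to 0.267 CPM in those labelled WT, so KO and WT are used below only as labels. In 3 libraries (KO female 2, WT female 2 and WT male 2) sex-linked reads of the other sex were present. The endothelial gene Pecam1 separated 6 libraries (KO female 1 and 2, KO male 1 and 2, WT female 1 and WT male 1) at 37.0 to 79.5 CPM from the other 9 at 2.62 to 8.06 CPM. The fibroblast gene Dcn followed the same split, at 81.3 to 328 CPM in the 6 and 10.9 to 37.6 CPM in the 9. Both label groups and both sexes hold libraries of each kind. Pcm1 itself was at 135 to 239 CPM in all 15.

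Atrial and ventricular myocytes build the same contractile machine from different parts. Atrial cells use their own essential and regulatory myosin light chains (Myl4 and Myl7) and restrain the calcium pump with sarcolipin (Sln), where ventricular cells use Myl3, Myl2 and mainly phospholamban (Pln). The orphan nuclear receptors Nr2f1 and Nr2f2 (the COUP-TF factors) maintain atrial fate, Bmp10 and Dkk3 encode secreted proteins made by atrial muscle, Gja5 encodes the gap junction protein of atrial and fast-conducting fibres, and Tbx3 is a repressor that keeps conduction cells from becoming working muscle. Several also serve other cells of the heart: Nr2f2 is a determinant of venous and lymphatic endothelium, and Gja5 is made by arterial endothelium.

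Sequence upstream of the start was available for 6 of the 9 genes (Myl4, Myl7, Bmp10, Nr2f1, Nr2f2 and Gja5) in RefSeq promoters of GRCm38.p6. The 250 bases before the start are shown for 3 of them: the pair of atrial light chains, whose levels are set side by side below, and Bmp10, the gene with the widest range. They are written 5′ to 3′ on the gene's strand. Capitals mark a match to a searched motif, here a CArG box (the serum response element) for Myl7 and the GATA motif AGATAA for Bmp10. They lie at chr11:5898783-5899032 (minus strand), chr11:104550413-104550662 (plus strand) and chr6:87428744-87428993 (plus strand).
Myl7: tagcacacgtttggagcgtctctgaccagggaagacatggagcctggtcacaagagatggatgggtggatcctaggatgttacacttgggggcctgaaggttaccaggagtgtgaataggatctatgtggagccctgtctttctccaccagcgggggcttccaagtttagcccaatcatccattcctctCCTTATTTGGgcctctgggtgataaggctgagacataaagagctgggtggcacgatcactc
Myl4: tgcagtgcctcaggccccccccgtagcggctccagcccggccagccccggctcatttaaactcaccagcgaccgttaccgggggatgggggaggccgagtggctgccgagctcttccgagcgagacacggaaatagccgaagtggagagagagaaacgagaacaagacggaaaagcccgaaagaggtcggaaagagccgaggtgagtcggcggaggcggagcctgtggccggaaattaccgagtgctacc
Bmp10: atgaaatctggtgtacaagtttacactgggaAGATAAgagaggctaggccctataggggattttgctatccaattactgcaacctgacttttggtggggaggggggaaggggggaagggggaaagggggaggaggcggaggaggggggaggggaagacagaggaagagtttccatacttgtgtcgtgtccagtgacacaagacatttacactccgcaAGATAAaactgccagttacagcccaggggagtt
The Myl7 match covers bases -61 to -52 before the start, and the Bmp10 matches cover -219 to -214 and -33 to -28. On both strands of all 32851 RefSeq promoters cut to the same 250 bases, the CArG box occurred in 1.47% and AGATAA in 9.99%. The other 4 motifs searched were the full progesterone receptor site (ACA, any 3 bases, TGT, with G and C as its outer bases, 0.387% of promoters), the nuclear receptor half-site AGGTCA (14%), the T-box half-site AGGTGTGA (1.12%) and the MEF2 consensus (2.92%), and none of them occurred in these windows of the 6 genes. A match is a description of letters, not a site in use.

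The atrial light chain genes were low beside their ventricular counterparts in every library. Levels between genes are compared only per kilobase of counted gene body, introns included. On that scale the median over 15 libraries was 0.54 CPM per kb for Myl7 against 47.7 for Myl2, and 0.211 for Myl4 against 7.17 for Myl3. Sln stood at 0.165 CPM per kb. Tbx3 (0.141), Dkk3 (0.0913), Bmp10 (0.0805), Nr2f2 (0.0483), Nr2f1 (0.015) and Gja5 (0.0137) followed on the same scale. Nppa, the atrial natriuretic peptide gene, was not low: its median was 61.5 CPM per kb.

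Myl7 encodes the atrial regulatory light chain (chromosome 11, 5896637 to 5898782, minus strand, GRCm38), and exons make up 27.5% of the 2146 bases counted. KO females had 1.78, 1.73, 0.487 and 1.23 CPM (replicates 1 to 4, the order used throughout), and KO males had 1.16, 4.02, 0.551 and 1.08 CPM. WT females had 2.21, 1.11 and 0.940 CPM, and WT males had 4.16, 0.901, 0.283 and 1.66 CPM. WT male 1 and KO male 2 were the highest, at about the same level, and the 4 groups overlapped. The highest library was 14.7 times the lowest, and the exact 95% Poisson intervals of these libraries (3.69 to 4.68 and 0.146 to 0.494 CPM) do not meet. Group levels were 1.31 ± 0.601 (SD, n = 4) in KO females, 1.42 ± 0.693 (n = 3) in WT females, 1.70 ± 1.57 (n = 4) in KO males and 1.75 ± 1.70 (n = 4) in WT males, and no neighbours in this order differed beyond their spread. These intervals and floors hold counting error alone. Where PCR copies of a molecule were counted as separate reads, the true error is larger than they show.

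Myl4 encodes the atrial essential light chain (chromosome 11, 104550663 to 104595753, plus strand), and was the member with the most reads, 191 to 1162 per library. Its levels in KO females were 11.1, 9.89, 6.20 and 11.9 CPM, against 7.14, 15.2, 9.52 and 7.93 CPM in KO males. WT females had 14.4, 7.90 and 8.55 CPM and WT males 17.0, 6.45, 8.42 and 11.6 CPM. WT male 1 and KO male 2 were again the 2 highest libraries, KO female 3 was the lowest, and the whole range was only 2.74-fold. Group means ran from 9.78 ± 2.53 CPM in KO females through 9.94 ± 3.62 in KO males and 10.3 ± 3.56 in WT females to 10.9 ± 4.60 in WT males, closer to each other than the SD of any of them. Exons cover 10.3% of the 45091 bases counted, and 4 predicted genes lie inside on the other strand.

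Sln encodes sarcolipin, the small inhibitor of the calcium pump (chromosome 9, 53850164 to 53854560, plus strand). It was at 0.768, 1.16, 0.487 and 1.12 CPM in KO females and 0.635, 1.75, 0.614 and 0.685 CPM in KO males. It was at 1.52, 0.725 and 0.639 CPM in WT females and 2.16, 0.593, 0.542 and 1.31 CPM in WT males. The order at the top was that of Myl7: WT male 1, KO male 2, WT female 1. Group means were 0.885 ± 0.319, 0.920 ± 0.552, 0.960 ± 0.483 and 1.15 ± 0.759 CPM in KO females, KO males, WT females and WT males, and no neighbours in this order differed beyond their spread.

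**Figure D1:**
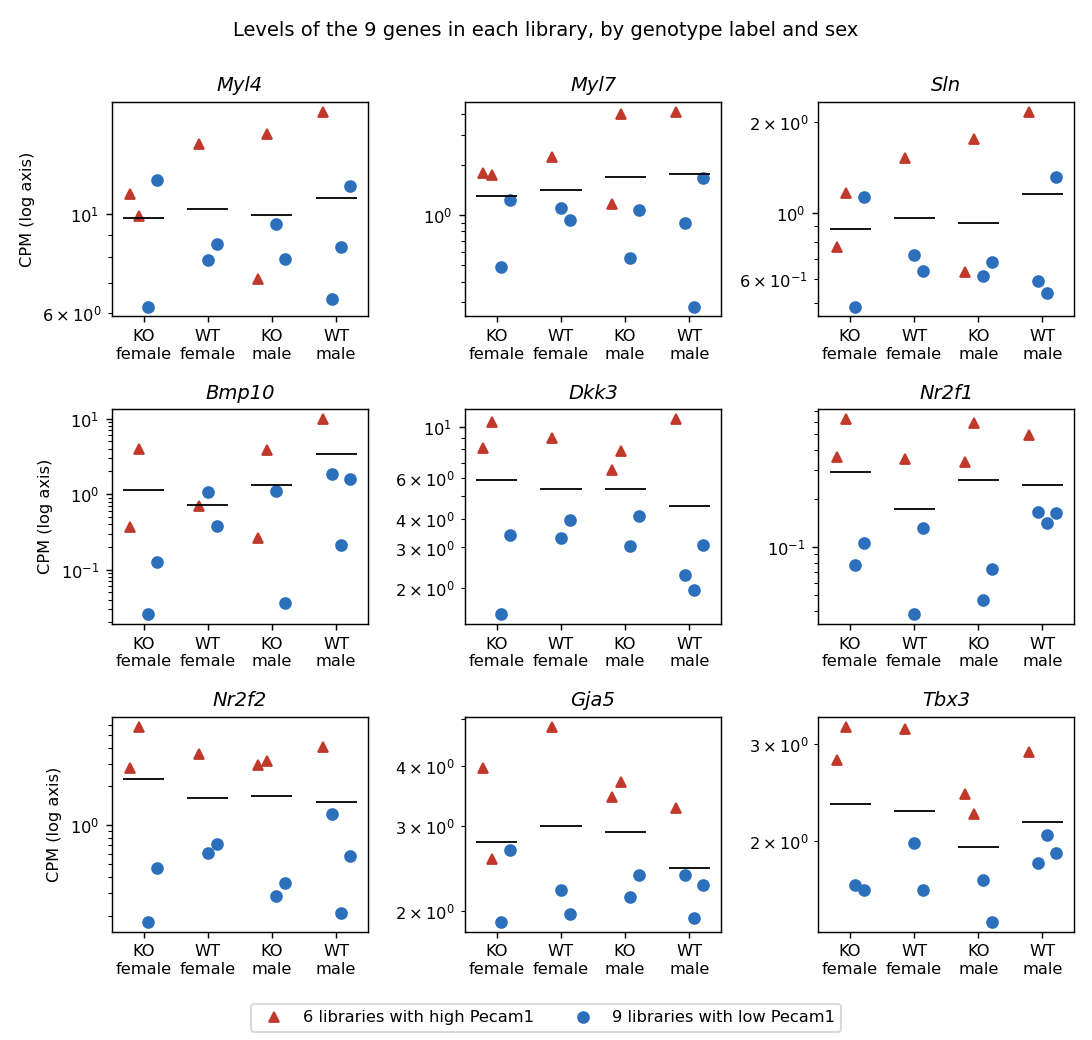
Level of each of the 9 genes (CPM, log axis) in each of the 15 libraries, by genotype label and sex; each point is a library, red triangles are the 6 libraries with high Pecam1, blue circles the 9 with low Pecam1, and bars are group means of CPM. The red triangles lie above every blue circle for Dkk3, Nr2f1, Nr2f2 and Tbx3, while Bmp10 spans 0.0256 to 9.84 CPM with both kinds mixed.

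Bmp10 had the widest range of the 9 genes. It encodes a growth factor of the BMP family secreted by atrial, mainly right atrial, muscle (chromosome 6, 87428994 to 87437677, plus strand). It had 18, 245, 1 and 6 reads in KO females and 7, 297, 70 and 5 reads in KO males. It had 18, 28 and 20 reads in WT females and 655, 77, 9 and 147 reads in WT males. These reads gave 0.0256 CPM in KO female 3 and 9.84 CPM in WT male 1, a 384-fold range, with exact Poisson intervals of 0.000648 to 0.143 and 9.10 to 10.6 CPM. KO female 2 (4.003 CPM) and KO male 2 (3.87 CPM) came next, while KO male 1, also one of the 6 libraries with high Pecam1, had 0.262 CPM. The range was 71.3-fold within the 9 libraries with low Pecam1 and 37.6-fold within the 6 with high Pecam1. Group means were 0.715 ± 0.346 CPM in WT females, 1.13 ± 1.92 in KO females, 1.32 ± 1.76 in KO males and 3.37 ± 4.37 in WT males, with the SD above the mean in all groups but WT females.

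Dkk3, which encodes a secreted glycoprotein of the Dickkopf family (chromosome 7, 112116017 to 112159057, minus strand), followed the Pecam1 split without overlap. The 6 libraries with high Pecam1 had 8.09 and 10.5 CPM (KO females 1 and 2), 6.50 and 7.85 CPM (KO males 1 and 2), 8.97 CPM (WT female 1) and 10.8 CPM (WT male 1). The other 9 ranged from 1.54 CPM in KO female 3 to 4.13 CPM in KO male 4, with a median of 3.09 CPM. Within a label and sex the SD (2.19 to 4.21 CPM) was wider than the distance between the lowest group mean, 4.53 CPM in WT males, and the highest, 5.88 CPM in KO females.

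The transcription factors showed the same split. Nr2f2 (chromosome 7, 70351944 to 70366735, minus strand) was at 2.77, 5.77, 0.179 and 0.466 CPM in KO females and 2.92, 3.14, 0.283 and 0.357 CPM in KO males. It was at 3.57, 0.611 and 0.714 CPM in WT females and 4.07, 1.23, 0.212 and 0.583 CPM in WT males. The lowest of the 6 high-Pecam1 libraries (2.77 CPM) stood above the highest of the other 9 (1.23 CPM, WT male 2), and the whole range was 32.2-fold. Group means were 1.53 ± 1.75, 1.63 ± 1.68, 1.68 ± 1.57 and 2.30 ± 2.59 CPM in WT males, WT females, KO males and KO females, and no neighbours in this order differed beyond their spread.

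Nr2f1, the close relative of Nr2f2 (chromosome 13, 78188973 to 78199757, minus strand), had the fewest reads, 1 to 45 per library. It was at 0.336 to 0.621 CPM in the 6 libraries and 0.0382 to 0.166 CPM in the 9, and in WT female 2 its single read gave an exact interval of 0.000966 to 0.213 CPM, so levels near the floor could not be ordered. Group means were 0.173 ± 0.160, 0.241 ± 0.170, 0.261 ± 0.254 and 0.292 ± 0.254 CPM in WT females, WT males, KO males and KO females, closer to each other than their SDs. An antisense gene, A830082K12Rik, overlaps it on the other strand with 15 to 223 reads, and B130024G19Rik overlaps Nr2f2 in the same way. The name of the deposited counts holds the abbreviation strrev, which may stand for counting on the reversed strand. No source used here states this in words, so whether reads from these partners are included is not settled here.

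Tbx3, the T-box repressor of the conduction system (chromosome 5, 119670669 to 119684724, plus strand), had the narrowest range, 2.25-fold. It was at 2.24 to 3.22 CPM in the 6 high-Pecam1 libraries and 1.43 to 2.05 CPM in the 9 others, a gap without overlap. Group means were 1.95 ± 0.466, 2.17 ± 0.495, 2.27 ± 0.813 and 2.33 ± 0.806 CPM in KO males, WT males, WT females and KO females, and no neighbours in this order differed beyond their spread. The antisense gene Tbx3os1 overlaps it by 697 bases.

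Gja5, the connexin gene (chromosome 3, 96904693 to 97077416, plus strand), ranged from 1.90 CPM in KO female 3 to 4.82 CPM in WT female 1. In the 6 libraries it was at 2.57 to 4.82 CPM and in the 9 at 1.90 to 2.67 CPM, and these ranges overlapped by the 2 closest libraries, KO female 2 and KO female 4. Group means were 2.46 ± 0.574, 2.77 ± 0.864, 2.91 ± 0.774 and 3.00 ± 1.58 CPM in WT males, KO females, KO males and WT females, and no neighbours in this order differed beyond their spread. Exons are 3.33% of the 172724 bases counted, and 4 genes lie within or across it on the other strand. Gja5 has 58 to 325 reads per library, against 605 to 3867 for Gpr89, which overlaps it only at its edge, and 26 to 170 for 4930573H18Rik, which overlaps it over a longer stretch.

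Across the split, the median of each of the 9 genes was higher in the 6 libraries with high Pecam1, which held for 49.1% of all tested genes. The ratio of medians was 7.2 for Nr2f2, 6.08 for Bmp10, 4.06 for Nr2f1, 2.76 for Dkk3, 2.12 for Myl7 and 2.09 for Sln, and these 6 genes passed 2-fold (15.4% of tested genes). It was 1.68 for Tbx3, 1.61 for Gja5 and 1.51 for Myl4. For 4 of the 9 the libraries did not overlap, against 13.6% of tested genes in this direction and 1.08% in the other. The split was set by the data, so it carries no test. Pecam1, which set it, is itself among the 10 endothelial genes below and in their sum. Markers of other cell types moved with it: all 10 endothelial, 8 arterial, 10 fibroblast and 7 epicardial genes were higher in the 6 without overlap, summed levels were 299 to 647 against 20.4 to 71.7 CPM for the endothelial list and 754 to 2010 against 62.2 to 263 CPM for the fibroblast list. The epicardial list summed to 21.2 to 51.0 CPM in the 6 and 0.472 to 4.77 CPM in the 9, where Msln, Krt19, Upk1b and Lrrn4 each had a library at 0. Their part in the levels of the 9 genes was not tested, and in bulk RNA fewer cells of a type and less RNA per cell cannot be told apart. The 7 ventricular genes did not follow: their ratios were 0.71 to 1.25, and none separated the libraries.

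The lists of other atrial and conduction genes gave a mixed picture across the split. Of 11 tested other atrial genes, 8 had the higher median in the 6 libraries and 1, the potassium channel gene Kcna5, separated them (ratio 8.4). The abundant ones stood near or under 1: 0.61 for Nppa, 0.766 for Kcnj3, a channel subunit of the atrial acetylcholine-gated current, 0.801 for Pam, the peptide-amidating enzyme, and 1.02 for Kcnj5, the partner of Kcnj3. Nppa was at 25.8 CPM in WT female 1, the lowest library, and 149 CPM in KO male 2, the highest. Of 16 tested conduction genes, 11 had the higher median in the 6, and Tbx2, Id2 and Smoc2 separated them. Over all tested genes, 49.1% had the higher median in the 6 and 13.6% separated them in this direction. The separating genes are therefore not read as a result about these lists. The difference between these lists and the 9 genes was not tested.

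A few libraries were high or low for many of the 9 genes at once. WT male 1 was the highest library for 5 of them (Myl4, Myl7, Sln, Bmp10 and Dkk3) and among the 3 highest for 8. KO female 3 was the lowest for 6 (Myl4, Sln, Bmp10, Dkk3, Nr2f2 and Gja5), and KO female 2 was the highest for Nr2f1, Nr2f2 and Tbx3. Among other genes of the lists, named after their values were seen, WT male 1 was also the highest for Mybphl, Sbk3, Cacna1d, Hcn4 and Tbx2. It was the lowest for the conduction gene Gjc1, and the atrial genes Nppa, Sbk2 and Stard10 were highest in other libraries. WT male 1 was also the highest for the leukocyte genes Cd68, Csf1r, Adgre1 and C1qa. The other tested leukocyte genes were highest elsewhere, Ptprc and Mrc1 in KO female 2 and Cd3e in KO male 3. The top places of WT male 1 are thus not particular to atrial or conduction genes.

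The ratio of Myl7 to Myl2 reads is taken within a library and needs no scaling between libraries. The counted bodies differ in length (2146 against 12522 bases), so raw reads understate Myl7 beside Myl2, and the ratio per kilobase is given as well. Myl7 reads were 0.267, 0.516, 0.116 and 0.257% of Myl2 reads in KO females and 0.205, 0.671, 0.0818 and 0.143% in KO males. They were 0.331, 0.231 and 0.146% in WT females and 0.696, 0.274, 0.0606 and 0.263% in WT males. Per kilobase of gene body the level of Myl7 was 0.353 to 4.06% of that of Myl2 and passed 1% in 10 of the 15 libraries. On both scales WT male 1 (4.06% per kilobase) and KO male 2 (3.92%) were at the top and WT male 3 was the lowest. As shares of the 2 genes' reads, WT male 1 had 0.691% (95% Wilson interval 0.615 to 0.777%) and WT male 3 had 0.0605% (0.0346 to 0.106%). The essential light chains gave a narrower picture, with Myl4 at 3.02 to 7.90% of Myl3 in reads and 1.87 to 4.90% per kilobase. The log2 ratio of Myl7 to Myl2 differed by 0.18 between KO and WT females (two-sided exact permutation test, p = 0.829) and by -0.23 between KO and WT males (exact p = 0.8). It differed by 0.34 between KO females and males (exact p = 0.657) and by -0.07 between WT females and males (exact p = 0.943). All 4 adjusted p were 0.943, and the smallest p that these designs allow is 0.0286.

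**Figure D2:**
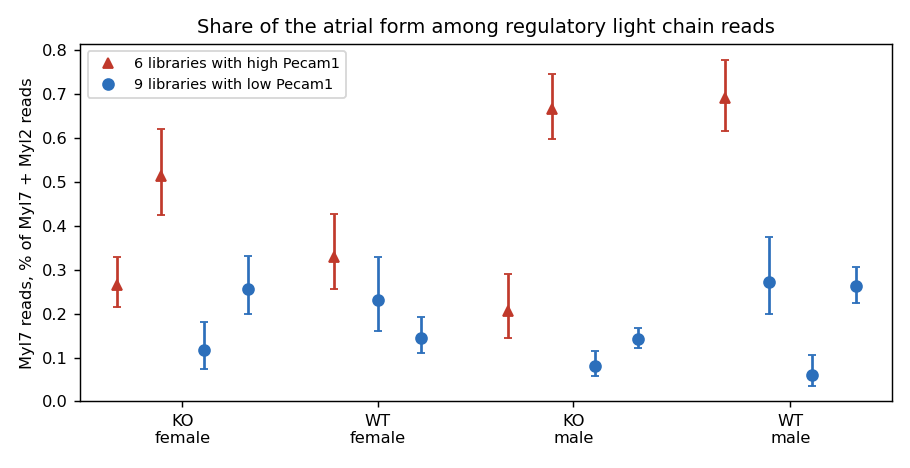
Myl7 reads as a percentage of Myl7 plus Myl2 reads in each library, by genotype label and sex; points are libraries, bars are 95% Wilson intervals, red triangles are the 6 libraries with high Pecam1 and blue circles the 9 with low Pecam1. Raw reads are not corrected for gene length; WT male 1 (0.691%, or 4.06% of Myl2 per kilobase) and KO male 2 (0.667%, or 3.92% per kilobase) stand at the top.

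Whether the genes moved together was examined within the 9 and within the 6 libraries, since the split alone would link any genes that follow it. In all, 108 relations of log2 CPM were computed (the 9 genes with each other, with Nppa and with a marker score, the mean log2 CPM of Pecam1, Cdh5, Dcn, Pdgfra, Rgs5 and Pdgfrb). Myl7 and Sln ranked the 9 libraries almost alike (Spearman rho = 0.967, exact permutation p = 0.000165, adjusted p = 0.0179; Pearson r = 0.782, exact p = 0.0158, adjusted p = 0.213). Without the 2 libraries farthest from the median of Myl7, r was 0.795. In the 6 libraries their r was 0.919 and rho 0.943 (exact p = 0.0153 and 0.0167, adjusted p = 0.213 and 0.31), and r was 0.855 without 2. Myl4 and Myl7 had the same order in the 6 (rho = 1.0, exact permutation p = 0.00278, the smallest that 6 libraries allow, adjusted p = 0.1; r = 0.930, exact p = 0.00417, adjusted p = 0.15; r = 0.828 without 2). In the 9 their r was 0.429 and rho 0.5 (exact p = 0.247 and 0.178, adjusted p = 0.649 and 0.564), and r was -0.09 without 2, so no relation was found there.

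Nr2f2 followed the marker score also within the 9 libraries. Its r was 0.952 (exact permutation p = 6.34e-05, adjusted p = 0.00685) and rho 0.933 (exact p = 0.00075, adjusted p = 0.0405), and r was 0.899 without 2 libraries. In the 6 libraries r was 0.872 and rho 0.714 (exact p = 0.0431 and 0.136, adjusted p = 0.388 and 0.564), and r fell to 0.385 without 2, so the relation there rests on those libraries. For the other 8 genes no adjusted p with the score passed 0.05, and for Myl4 r was -0.21 in the 9 and -0.15 in the 6 (exact p = 0.59 and 0.811, adjusted p = 0.91 and 0.964). Nr2f1 and Nppa gave r = 0.813 in the 9 (exact permutation p = 0.000408, adjusted p = 0.022; rho = 0.783, exact p = 0.0172, adjusted p = 0.31; r = 0.776 without 2), where Nr2f1 has 1 to 15 reads. In the 6 their r was 0.482 (exact p = 0.347, adjusted p = 0.75). Bmp10 followed neither Myl7 (r = 0.291 in the 9, exact p = 0.448, adjusted p = 0.854) nor the score (r = 0.545, exact p = 0.131, adjusted p = 0.51) past the threshold. In the 6 its r with Myl7 was 0.785 (exact permutation p = 0.0806, adjusted p = 0.458) and 0.374 without 2.

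**Figure D3:**
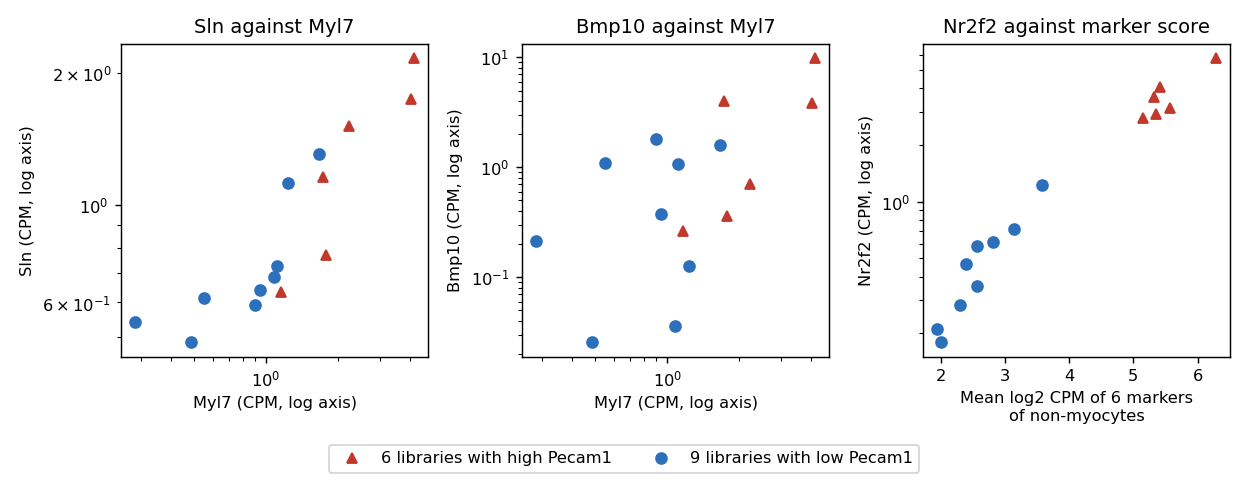
Pairs of measures over the 15 libraries: Sln against Myl7 and Bmp10 against Myl7 (CPM, log axes), and Nr2f2 (CPM, log axis) against the marker score (mean log2 CPM of 6 non-myocyte markers); red triangles are the 6 libraries with high Pecam1, blue circles the 9 with low Pecam1. Sln is higher where Myl7 is higher within both sets (rho 0.967 and 0.943), Bmp10 scatters, and Nr2f2 lies along the score within the 9 (r = 0.952).

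The genes most like each member over all 15 libraries were found by Spearman correlation among 14042 named tested genes, as a description that the Pecam1 split dominates for most. Nr2f2 was closest to Gab3 (rho 0.996), Cd163, a scavenger receptor of macrophages (0.989), and Atp2b4 (0.986). Nr2f1 was closest to Lpcat4 (0.979), Nid2 (0.968) and Kctd11 (0.961), and Dkk3 to Flna (0.961), Slc22a17 (0.95) and Tinagl1 (0.95). All 9 of these genes had higher medians in the 6 libraries. Tbx3 was closest to Cacna1e (0.946), Rap2a (0.943) and Il18 (0.943), and Gja5 to Gpr176 (0.929), Adamts8 (0.921) and Gipc3 (0.918). The closest gene to Myl7 was Sln (0.946), before Kif22 (0.936) and Npc2 (0.914), and the closest to Sln were Myl7, Cbx8 (0.882) and Myl4 (0.879). Myl4 was closest to Hyi (0.907), Pes1 (0.9) and Grrp1 (0.889). Bmp10 had no close match: its best were F2r (0.793), Tlr7 (0.789) and Ms4a4c (0.789).

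The comparison of the genotype labels called none of the 9 genes in females or in males by edgeR's quasi-likelihood test with Benjamini-Hochberg adjustment. The background was low: 0% of tested genes were called in females and 0.0115% in males, the latter being Pgr and the predicted gene Gm32014. No member had an unadjusted p below 0.05, against 1.74% of tested genes in females and 1.42% in males, and DESeq2 called none either. In females (KO minus WT label, log2 fold change ± SE) the light chains and Sln were at -0.07 ± 0.35 (Myl4), -0.11 ± 0.81 (Myl7) and -0.10 ± 0.55 (Sln). In males the same genes were at -0.13 ± 0.33, -0.04 ± 0.74 and -0.32 ± 0.50. The SE of Myl7 was over 2 times that of Myl4 in both sexes, so its estimates are the less precise.

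Bmp10 had the largest errors of label effects, with estimates of 0.70 ± 1.60 in females and -1.34 ± 1.43 in males. Without KO female 2 the female estimate was -1.99, and without WT male 1 the male estimate was 0.13, so single libraries set the direction. Dkk3 was at 0.13 ± 0.71 and 0.24 ± 0.65. Nr2f1 was at 0.80 ± 0.98 and 0.07 ± 0.85, and Nr2f2 at 0.51 ± 1.27 and 0.12 ± 1.16. Every one of these estimates was smaller than its SE. Gja5 (-0.11 ± 0.34 and 0.24 ± 0.31) and Tbx3 (0.05 ± 0.31 and -0.16 ± 0.29) had the smallest errors. All adjusted p were 1 in females and 0.999 in males. Counted by direction, 5 of 9 were higher under the KO label in females (median log2 fold change 0.046, against 0.025 over all tested genes) and 4 of 9 in males (-0.045, against 0.018). No member separated the labels without overlap, against 0.905% (higher) and 1.01% (lower) of tested genes in females and 0.756% and 0.842% in males.

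With a term for the marker score in the fit, the SE of Nr2f2 fell from 1.27 to 0.22 in females and from 1.16 to 0.19 in males, and that of Dkk3 from 0.71 to 0.28 in females. The Nr2f2 estimates were then -0.25 in females and -0.54 in males, where the unadjusted p was 0.0129 and the adjusted p by edgeR 0.98. Their sign was opposite to that without the term. The SE of Bmp10 remained wide, at 1.24 and 0.91, with estimates of -0.77 and -1.44.

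**Figure D4:**
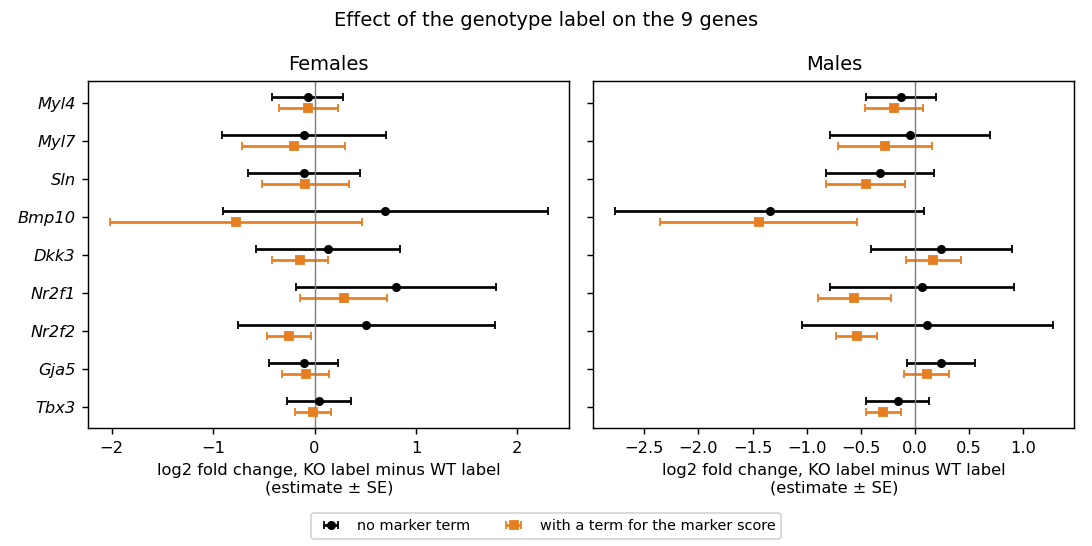
Log2 fold change of each gene, KO label minus WT label, in females (left) and males (right); points are edgeR estimates and bars are SE, black without and orange with a term for the marker score. The score term narrows the bars most for Nr2f2 (1.27 to 0.22 in females), and no gene was called in either fit.

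For the 9 genes no difference was detected between the sexes in the label effect, nor between the sexes themselves. These 2 comparisons use the same 15 libraries as those above. For the difference of label effects (females minus males) 0% of tested genes were called, and no member had an unadjusted p below 0.05 (2.49% of tested genes did). The largest estimate was 2.04 ± 2.15 for Bmp10 (adjusted p = 1 by edgeR), and the median of the 9 was 0.205 against 0.019 over all genes. For females minus males averaged over the labels, 0.0917% of tested genes were called and 4.51% had an unadjusted p below 0.05, none of them a member. Bmp10 was again the largest at -1.24 ± 1.08 (adjusted p = 1 by edgeR), and Myl7 was at -0.35 ± 0.55. No member separated the sexes, against 0.0516% (higher in females) and 0.132% (lower) of tested genes.

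Among the other atrial and conduction genes, none of the tested members was called in any of the 4 comparisons. Of 11 tested other atrial genes, 10 were higher under the KO label in females (median 0.32, against 0.025 over all genes, of which 55.4% were higher) and 5 in males (-0.02). Of 16 conduction genes, 9 were higher in females (0.18) and 5 in males (-0.09). Among the genes reported here, unadjusted p below 0.05 were found in females for Etv1, a transcription factor of fast-conducting myocytes (0.59 ± 0.24), and in males for Kcnj3 (-0.42 ± 0.19), with adjusted p by edgeR of 1 and 0.999. For the difference between the sexes in label effect the same held for Kcnj3 (0.65 ± 0.29) and Etv1 (0.79 ± 0.33), both with adjusted p = 1 by edgeR. Gjc1, another connexin of the conduction system, was at 0.30 ± 0.11 for females minus males (adjusted p = 0.951 by edgeR).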

How the data were processed

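RNA of sorted Pcm1-positive nuclei was measured in 15 libraries. Per the submitters' processing notes, the tools were STAR 2.5.3a and featureCounts 1.5.0 on GRCm38 (mm10). The deposited values are raw counts per gene, without normalization, and the counted length equals the whole gene body in 100% of 55536 genes, so reads of unspliced RNA are included. Nuclear RNA holds much of it, and long genes gather more. A smaller deposited table has 16610 of these genes with identical counts and was not needed. There were 0 columns without a sample and 0 rows naming no gene. Strand of counting is not stated in words, and allele and replicate origin are not given in the sources used here. Groups and replicate numbers come from the titles and labels.

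Counts were analysed in R 4.3.3 with edgeR 4.0.16: filterByExpr by group (17455 genes kept), TMM scaling, and glmQLFit (robust) and glmQLFTest with 1 mean per group over all 15 libraries, so that 4 small groups share 1 estimate of the spread (11 residual degrees of freedom, common dispersion 0.163). Benjamini-Hochberg adjustment ran over all tested genes, with a threshold of 0.05. Levels are CPM on TMM library sizes with exact 95% Poisson intervals. The fit was tested on simulated counts with a dispersion of 0.05, under that of the data, and without a Pecam1 split. That check therefore does not show what the fit can detect in these libraries. Ratios and correlations used two-sided exact permutation tests in Python 3.11.15 over every arrangement of the libraries. Correlations, the marker score and the search for similar genes used log2 CPM with a prior count of 2. The split of libraries lies at the widest gap in log2 CPM of Pecam1.

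The alternatives were DESeq2 1.42.0, no low-count filter, the replicate block, a term for a marker score, each side of the Pecam1 split alone, a fit without the 3 libraries of mixed sex reads, and each library left out. Deviations of same-numbered libraries from their group means had correlations of 0.169 to 0.699 in males and 0.503 to 0.829 under the KO label. They were 0.179 to 0.842 under the WT label and -0.41 to 0.708 in females. The lowest values, in males, in females and under the WT label, were those of replicate 2. Replicate 1 has high Pecam1 in all 4 groups, and whether libraries are paired apart from the Pecam1 split was not tested. The main fit and the permutation tests of ratios treated the libraries as unpaired. The members, the 15 gene lists and the tests were chosen with earlier results of these data known. Named genes are the 9 members in every comparison, Pgr, Pcm1, Myl2, Pecam1 and Dcn as checks, called members or up to 4 of the highest mean CPM of other lists, and for each member the 3 most similar genes. Other names, including those at unadjusted p below 0.05, were chosen after their values were seen. Promoters came from RefSeq (GRCm38.p6), and 3 members without an entry are named only. Values of 1 gene of the other lists are not reported here.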

Additional observations from a re-analysis of the deposited data

Results flagged for a closer look

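In 5 of 27 sets of 4 libraries (a gene in a label and sex group) the highest library lay far from the rest by Dixon's criterion at 95%. For independent sets of normally spread values, chance alone flags about 1 in 20 (5%). These genes share libraries and their CPM are skewed, so the count of flags cannot be set against that rate. WT male 1 stood out for 3 genes. Bmp10 was at 9.84 CPM there, against 1.83 CPM in the next library and 0.212 CPM in the lowest. Dkk3 was at 10.8 CPM, against 3.09 CPM in the next and 1.96 CPM in the lowest, and Nr2f1 at 0.496 CPM, against 0.166 and 0.142 CPM. WT male 1 is the only library of its group with high Pecam1, and the part of that in these levels was not tested.

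In KO females, Bmp10 was at 4.003 CPM in replicate 2, against 0.364 CPM in the next library, which is also one with high Pecam1. In KO males, Sln was at 1.75 CPM in replicate 2, against 0.685 CPM in the next library. The other high-Pecam1 library of that group, KO male 1, had 0.635 CPM of Sln. KO female 2 also carries reads of the other sex.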

How the results depend on the processing

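Below, the 3 libraries in which reads of the other sex were found (KO female 2, WT female 2 and WT male 2) are those of mixed sex reads. None of the 9 genes was called in any of 540 estimates with 1 library left out (smallest adjusted p 0.67) or in any of 248 estimates under other settings (smallest adjusted p 0.668). The estimate changed sign in 82 and 43 of these. DESeq2 and the fit without a low-count filter changed no sign. The cause of the other changes was not tested. The reads of Bmp10 and Nr2f1 fall to 1 in a library, which limits what can be said of them, and Nr2f1 dropped under the filter in the 9 low-Pecam1 libraries. In the 6 high-Pecam1 libraries each WT group is 1 library, assumed to vary like the others.

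Genes called over the whole table were as follows. DESeq2 called 3 genes for the label in females, 4 in males, 1 for the difference and 67 for females minus males. With the marker score term the counts were 1 in females and 36 for females minus males. The male label comparison had 0 calls in the 9 libraries, 0 in the 6 and 0 without the 3 of mixed sex reads, where females minus males had 8, 1 and 11. With 1 library left out, the counts were 0 to 0 in females, 0 to 1 in males, 0 to 0 for the difference and 5 to 23 for females minus males, the lowest without WT female 1. Fewer libraries enter each of these fits. With the replicate block, the counts of called genes were 0 in females, 2 in males, 0 for the difference and 19 for females minus males, and no call among the 9 genes changed. Of the 3 same-numbered pairs of female libraries, replicates 1 and 3 varied together (0.708 and 0.522) and replicate 2 did not (-0.41). The block used the replicate numbers of all 15 libraries, females included, so its estimates rest on a pairing that replicate 2 of the females did not show.

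With a term for the marker score, estimates of the other sign were -0.77 (Bmp10), -0.14 (Dkk3), -0.25 (Nr2f2) and -0.014 (Tbx3) for the label effect in females. They were -0.56 (Nr2f1) and -0.54 (Nr2f2) for the label effect in males. The estimate was 0.068 (Myl7) for the difference of label effects. In the 9 libraries with low Pecam1 alone, estimates of the other sign were 0.14 (Myl4), 0.26 (Sln), -3.07 (Bmp10), -0.54 (Dkk3), -1.02 (Nr2f2), 0.13 (Gja5) and -0.13 (Tbx3) for the label effect in females. The estimate was -1.05 (Nr2f2) for the label effect in males. They were 0.011 (Myl7), -1.87 (Bmp10) and 0.090 (Gja5) for the difference of label effects. They were 0.065 (Myl7), 0.012 (Sln), -0.020 (Gja5) and -0.0041 (Tbx3) for females minus males. In the 6 libraries with high Pecam1 alone (2 residual degrees of freedom), estimates of the other sign were -0.066 (Tbx3) for the label effect in females. They were -0.56 (Dkk3), -0.016 (Nr2f1) and -0.40 (Nr2f2) for the label effect in males. They were 0.29 (Myl7) and 0.62 (Dkk3) for the difference of label effects. Without the 3 libraries of mixed sex reads, estimates of the other sign were -1.58 (Bmp10), -0.56 (Dkk3), -0.32 (Nr2f1), -0.89 (Nr2f2) and -0.23 (Tbx3) for the label effect in females. The estimate was -0.068 (Nr2f1) for the label effect in males. They were -0.030 (Bmp10), -0.25 (Nr2f1), -0.92 (Nr2f2) and -0.0019 (Tbx3) for the difference of label effects. They were -0.011 (Dkk3) and -0.076 (Nr2f2) for females minus males. With the replicate block, estimates of the other sign were 0.095 (Myl7) and -0.20 (Nr2f1) for the label effect in males. The estimate was -0.034 (Myl4) for the difference of label effects.

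Single libraries set the direction of most estimates, most often WT female 1, KO female 2, WT male 1 and KO male 2. For the label effect in females the ranges were -0.23 to 0.25 (Myl4), -0.34 to 0.36 (Myl7), -0.33 to 0.38 (Sln), -1.99 to 1.08 (Bmp10), -0.31 to 0.71 (Dkk3), -0.50 to 1.79 (Nr2f2), -0.34 to 0.41 (Gja5) and -0.15 to 0.37 (Tbx3). For the label effect in males the ranges were -0.41 to 0.17 (Myl4), -0.93 to 0.83 (Myl7), -0.84 to 0.17 (Sln), -2.85 to 0.13 (Bmp10), -0.015 to 1.13 (Dkk3), -0.88 to 0.69 (Nr2f1), -0.42 to 1.29 (Nr2f2) and -0.28 to 0.013 (Tbx3). For the difference of label effects the ranges were -0.24 to 0.38 (Myl4), -0.94 to 0.82 (Myl7), -0.27 to 0.74 (Sln), -0.64 to 3.54 (Bmp10), -1.002 to 0.46 (Dkk3), -0.78 to 1.68 (Nr2f2) and -0.58 to 0.17 (Gja5). For females minus males the ranges were -0.21 to 0.097 (Myl4), -0.58 to 0.092 (Myl7), -0.41 to 0.089 (Sln), -0.099 to 0.64 (Dkk3), -0.58 to 0.32 (Nr2f1), -0.36 to 0.87 (Nr2f2), -0.15 to 0.22 (Gja5) and -0.00050 to 0.26 (Tbx3).

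For the log2 ratio of Myl7 to Myl2 reads, no paired analysis was run, since it comes from a permutation test between groups. With Myl7 against Ttn reads the difference was -0.076 for KO minus WT females, 0.13 for KO minus WT males and 0.21 for WT females minus males. In the 9 low-Pecam1 libraries it was -0.086 for KO minus WT females and 0.17 for WT females minus males. Without the 3 of mixed sex reads it was -0.14 for KO minus WT females and -0.0053 for KO females minus males. With 1 library left out it ranged from -0.16 to 0.56 for KO minus WT females and from -0.88 to 0.29 for KO minus WT males. It ranged from -0.094 to 0.92 for KO females minus males and from -0.72 to 0.45 for WT females minus males. None of these passed the threshold.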
